A study of Mus musculus with 8 samples.

Results

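The nuclear genes for the protein subunits of the mitochondrial ribosome were followed in hematopoietic stem cells of elektra and wildtype mice. Members were the genes whose symbol begins with Mrpl (large subunit) or Mrps (small subunit) and a digit, pseudogenes left out, with the feature of highest mean signal kept for each gene. Counted in this way there were 75 of the 30802 genes with a symbol of their own on the array, 47 of the large and 28 of the small subunit.

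The mitochondrial ribosome, or mitoribosome, translates the few mRNAs that mitochondrial DNA encodes, all of them for subunits of the respiratory chain and ATP synthase. Its RNA comes from mitochondrial DNA, while its proteins are encoded in the nucleus, made in the cytosol and imported. Many of these proteins descend from those of the bacterial ribosome and others exist only in mitochondria. Resting hematopoietic stem cells are known for relying little on respiration, and mitochondrial activity is known to increase as they enter the cycle and differentiate.

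Mutant cells came from mice homozygous for elektra (Slfn2 elektra/elektra, on a C57Bl/6 background). Elektra is known as a missense loss-of-function allele of Slfn2, a Schlafen family gene needed for quiescence of T cells. Control cells came from littermates homozygous for the wildtype Slfn2 allele. No mouse was treated, the allele is carried in the germline and so by every cell of the animal, and ages are not given here. Cells were enriched for c-Kit and sorted as LSK cells (no lineage markers, with Sca-1 and c-Kit), CD9 high, CD48 negative and CD150 positive. There were 4 arrays per genotype, each from about 200 pg of total RNA amplified with 12 cycles of PCR and hybridised to an Affymetrix whole-transcript array. Each array is described as a pool from 2 mice in the protocol, but the series text counts 4 mice per genotype, so the number of animals behind an array is not settled and p-values measure the spread between these arrays.

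Signals are RMA values on the log2 scale, so a difference of 1 is a doubling, and differences are elektra minus wildtype throughout. Array medians were 6.11 to 6.21 in elektra, against 6.12 to 6.26 in wildtype, and arrays carry no read depth. Slfn2 itself averaged 7.99 ± 0.17 in elektra and 7.66 ± 0.52 in wildtype (SD, n = 4 each; limma adjusted p = 0.598), and a missense allele need not alter the transcript level. The 10 genes that mark the sorted stem cells were all detected, with a mean signal per array of 10.29 to 10.44 in elektra, against 10.28 to 10.55 in wildtype. Of the 5 markers of multipotent progenitors (Plac8, Cd53, Cd34, Cd27 and Flt3) all had the higher mean in elektra, and their mean signal per array was 8.35 to 8.59 in elektra, against 7.75 to 8.18 in wildtype, with no overlap. Plac8 differed by 1.30 log2 (limma adjusted p = 0.0114), but 0 genes of the array passed with replicate number as a block, with the arrays' interquartile range as a covariate or without elektra replicate 4. Of the 4 megakaryocyte markers, Pf4 differed by 0.61, Itga2b by 0.39, Gp9 by 0.01 and Gp1ba, below the level filter, by -0.10, and the list's mean signal was 8.21 to 8.43 in elektra, against 8.04 to 8.16 in wildtype. Nkg7, of the T and NK cell markers, differed by 0.57 and had no overlap between genotypes, while Cd3e, Cd3g and Ncr1 lay below the level filter. The granulocyte list had its highest mean on elektra replicate 4, at 7.64, against 6.02 to 6.12 on the other elektra arrays and 6.23 to 6.73 in wildtype. Erythroid, monocyte and stromal or endothelial markers had 2, 3 and 3 members above the filter and 0 past the adjusted threshold in limma, with 1 of them (Pecam1) at an unadjusted p under 0.05. Of all genes 7.02% were higher at that p, and 3.9% were higher without overlap between genotypes. Markers of B cells and mast cells, and Cd48, which the sort removes, were below the filter. The part of these cells in the differences below was not tested, and in RNA of sorted cells fewer cells of a type and less RNA per cell cannot be told apart.

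Mitoribosomal transcripts lay slightly higher in elektra stem cells as a group, and no single gene passed the test. A gene was tested where its feature had a mean of at least 6.17 log2, the median over features, which kept 71 members (46 large, 25 small) among 15710 genes. Of these 71, 0 passed an adjusted p of 0.05 (limma, Benjamini-Hochberg over all genes tested), the smallest being 0.294, against 0.0382% of all genes. The elektra mean was the higher one for 55 members, or 77.5%, and the lower one for 16, whereas it was higher for 53.1% of all genes. The median difference was 0.11 log2 with quartiles of 0.02 and 0.18, against a median of 0.01 and quartiles of -0.10 and 0.13 over all genes. A single member's difference had a median standard error of 0.11, against 0.12 over all genes. The background changed with the level filter. A stricter filter kept 53 members, of which 73.6% were higher in elektra, with a median of 0.08. Over all genes kept by the stricter filter these values were 63.3% and 0.05. At an unadjusted p under 0.05, 15.1% of these members were higher, against 10.5% of all genes kept.

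At an unadjusted p under 0.05, 8 members, or 11.3%, were higher in elektra and 0 were lower, against 7.02% and 3.95% of all genes. Groups did not overlap for 4 members on the higher side, or 5.63%, and for 1 on the lower side, or 1.41%, where 3.9% and 2.37% of all genes did. With so few genes behind them, these shares are not far from the background. After quantile normalization 5 members, or 7.04%, were higher at that threshold, against 5.4% of all genes. On the lower side were 2 of 71 members, against 796 of 15709 genes. Of the calls over all genes 51.6% were then higher, against 64% without this added step. RMA already includes a quantile normalization, so this was a further one. With arrays centred on their medians 12 members, or 16.9%, were higher, against 9.57% of all genes, and 0 were lower. Here 82% of the calls over all genes were higher. The authors' deposited table, which gives an unadjusted p for each feature, has 6 members higher (Mrpl21, Mrpl24, Mrpl47, Mrpl51, Mrps10 and Mrps22) and 2 lower (Mrpl23 and Mrpl40) at a p under 0.05. These counts are over all 75 members. The share of all features past that p was not counted here, so they stand without a background.

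**Figure D1:**
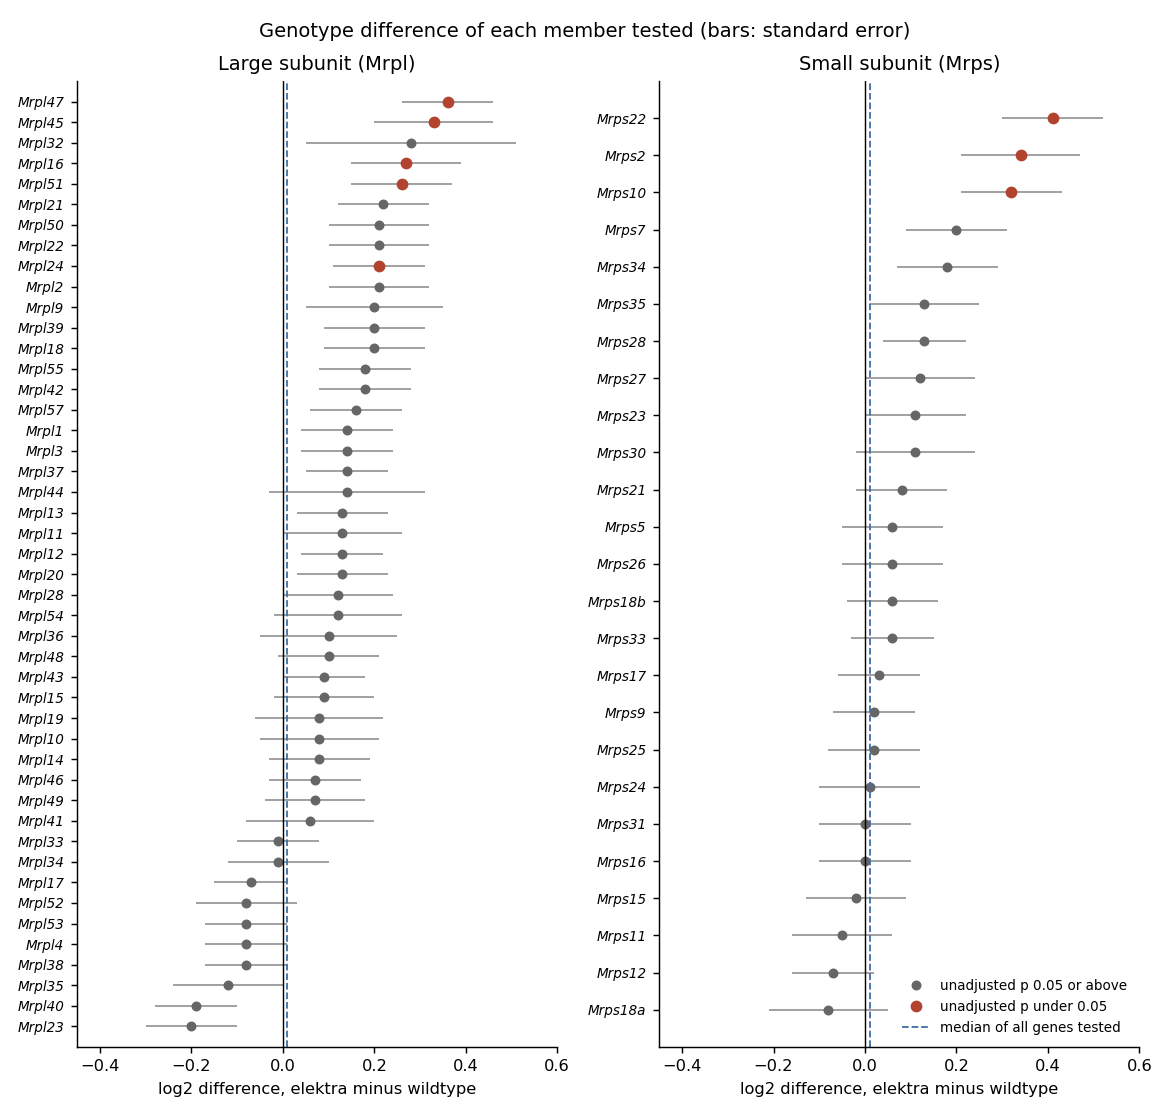
Log2 difference, elektra minus wildtype, of each of the 71 members tested (points, horizontal axis) with its standard error (bars), the 46 large subunit genes on the left and the 25 small subunit genes on the right. Most points lie right of 0 and of the dashed median of all genes at 0.01, and the 8 red points, from Mrps22 at 0.41 to Mrpl24 at 0.21, have an unadjusted p under 0.05 while 0 pass after adjustment.

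Large and small subunit genes were set side by side without a test of their difference. The 46 large subunit genes had a median of 0.13 with quartiles of 0.07 and 0.20, with 36 higher and 10 lower in elektra. The 25 small subunit genes had a median of 0.06 with quartiles of 0.01 and 0.13, with 19 higher and 6 lower. An unadjusted p under 0.05 was reached by 5 large subunit genes, or 10.9%, and by 3 small subunit genes, or 12%, all higher, against 7.02% of all genes. Mrps30 and Mrps18a are named for the small subunit but lie in the large one in structures of the mammalian mitoribosome, and counting them there gave medians of 0.12 and 0.06. Scaling moved both medians. After quantile normalization the large subunit had 0.09, the small subunit 0.01 and all genes -0.01, and with arrays centred on their medians these were 0.18, 0.11 and 0.06.

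Members of the small subunit with the smallest p included Mrps22, a subunit that exists only in mitochondrial ribosomes. Mrps22 read 8.18, 8.05, 8.15 and 7.90 on the elektra arrays, against 7.46, 7.55, 7.83 and 7.78 on the wildtype arrays. All elektra values exceeded all wildtype values. The means were 8.07 ± 0.13 in elektra and 7.66 ± 0.18 in wildtype, a difference of 0.41 log2 or 1.33-fold (SE 0.11, limma adjusted p = 0.294). Mrps10, which descends from a bacterial small subunit protein, read 8.23, 8.13, 7.89 and 8.12 in elektra, against 7.96, 7.62, 7.75 and 7.75 in wildtype. Only wildtype replicate 1 reached into the elektra range. The difference was 0.32, or 1.25-fold (SE 0.11, limma adjusted p = 0.359). Mrps2, the counterpart of bacterial S2, read 6.45, 6.81, 6.79 and 6.49 in elektra, against 6.41, 6.53, 6.11 and 6.14 in wildtype. Its groups overlapped, with wildtype replicate 2 above 2 of the elektra arrays, and the difference was 0.34 (SE 0.13, limma adjusted p = 0.396).

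Of the 5 genes listed for mRNA handling and decoding, 1 (Mrps2) was higher at an unadjusted p under 0.05, or 20%, against 7.02% of all genes. Among their means 3 were higher and 2 lower, and the median was 0.06. It was 0 after quantile normalization, 0.03 with the arrays' interquartile range as a covariate and 0.01 without elektra replicate 1. Mrps7, a head protein of the small subunit, differed by 0.20 and Mrps5, at the mRNA entrance, by 0.06. Mrps11 on the platform differed by -0.05 and Mrps12, at the decoding centre, by -0.07. Mrps5 and Mrps11 changed sign in other fits. Mrps28 differed by only 0.13 but without overlap, at 7.33, 7.44, 7.34 and 7.41 in elektra and 7.12, 7.23, 7.33 and 7.33 in wildtype, and the lowest elektra and highest wildtype values both round to 7.33. Mrps28 was named after its values were seen.

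The polypeptide exit tunnel is where the growing protein leaves the large subunit, next to the inner membrane. Its 8 listed genes had a median of 0.20, with 6 higher and 2 lower, and 3 (Mrpl47, Mrpl45 and Mrpl24) higher at an unadjusted p under 0.05, or 37.5%, against 7.02% of all genes. That count was 1 without elektra replicate 1, 1 with the arrays' interquartile range as a covariate, and 2 higher with 1 lower after quantile normalization. The share of all genes called higher fell as well, to 4.93%, 4.52% and 5.4% in the same order. After quantile normalization 796 of 15709 genes were lower. Mrpl47, a rim protein of the exit, read 7.85, 8.13, 8.08 and 7.97 in elektra, against 7.73, 7.44, 7.66 and 7.74 in wildtype. The groups did not overlap, and the difference was 0.36 or 1.29-fold (SE 0.10, limma adjusted p = 0.308). A fainter feature of Mrpl47 gave 0.30.

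Mrpl45, which anchors the ribosome to the inner membrane, read 8.16, 7.76, 7.77 and 7.53 in elektra, against 7.52, 7.31, 7.54 and 7.51 in wildtype. Elektra replicate 1 stood above the rest and elektra replicate 4 lay within the wildtype range. The difference of 0.33 (SE 0.13, limma adjusted p = 0.402) was 0.22 at its lowest and 0.43 at its highest when 1 array was left out. Mrpl24, also at the exit, read 10.80, 10.69, 10.74 and 10.67 in elektra, against 10.62, 10.62, 10.46 and 10.35 in wildtype. Here the groups were apart by a narrow gap, with a difference of 0.21 (SE 0.10, limma adjusted p = 0.452).

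Mrpl23, another exit protein, lay on the other side. It read 9.26, 9.42, 9.29 and 9.24 in elektra, against 9.34, 9.60, 9.60 and 9.48 in wildtype, overlapping through elektra replicate 2 and wildtype replicate 1. The difference was -0.20, or 0.871-fold (SE 0.10, limma adjusted p = 0.473). Differences of the other exit genes were 0.21 for Mrpl22, 0.20 for Mrpl39, 0.14 for Mrpl44 and -0.07 for Mrpl17. Mrpl44, which has a ribonuclease III fold, ranged from 7.46 to 7.73 in elektra and from 7.04 to 7.94 in wildtype. Both extremes of Mrpl44 were thus wildtype arrays, and its difference was -0.00089 without wildtype replicate 3.

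At the peptidyl transferase core, which joins the amino acids, 3 of 4 genes had the higher mean in elektra, and the median was 0.17. Of the 4 genes 1 (Mrpl16) was higher at an unadjusted p under 0.05, or 25%, against 7.02% of all genes. That call was lost after quantile normalization, with the interquartile range as a covariate and without elektra replicate 1. In the same order, 5.4%, 4.52% and 4.93% of all genes were called higher. Mrpl16, near the entry site for transfer RNA, read 8.68, 8.39, 8.41 and 8.58 in elektra, against 8.14, 8.01, 8.30 and 8.51 in wildtype. Wildtype replicate 4 lay inside the elektra range, and the difference was 0.27 (SE 0.12, limma adjusted p = 0.452). Mrpl2 differed by 0.21, Mrpl3 by 0.14 and Mrpl4 by -0.08. Mrpl4 ranged from 8.54 to 8.77 in elektra and from 8.67 to 8.81 in wildtype.

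Genes of the stalk, which recruits translation factors, had a median of 0.12 that was 0.07 after quantile normalization and 0.06 without elektra replicate 1, with 4 of 5 higher and 0 at an unadjusted p under 0.05. Mrpl12 differed by 0.13, Mrpl11 by 0.13, Mrpl54 by 0.12 and Mrpl10 by 0.08, while Mrpl53 differed by -0.08. Human MRPL12 is also known to bind the mitochondrial RNA polymerase. Mrpl12 ranged from 6.85 to 7.00 in elektra and from 6.73 to 6.94 in wildtype. With the interquartile range of each array as a covariate the median of the stalk genes was -0.04, with 2 higher and 3 lower, and Mrpl10 and Mrpl54 were among those that turned.

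The central protuberance, which contacts transfer RNA and the small subunit, had a median of 0.08 over its 6 tested genes, with 4 higher and 2 lower. Mrpl40 was the only member tested with all elektra arrays below all wildtype arrays, at 8.06, 7.82, 8.03 and 8.09 in elektra and 8.18, 8.10, 8.24 and 8.26 in wildtype. Its nearest values, 8.09 and 8.10, were almost equal. The difference was -0.19, or 0.876-fold (SE 0.09, limma adjusted p = 0.480). Of the others, Mrpl18 differed by 0.20, Mrpl55 by 0.18, Mrpl48 by 0.10, Mrpl46 by 0.07 and Mrpl38 by -0.08.

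Mrpl51, a large subunit protein without a bacterial counterpart, read 7.97, 7.80, 7.77 and 7.66 in elektra, against 7.45, 7.39, 7.58 and 7.75 in wildtype. Wildtype replicate 4 overlapped with the elektra arrays, and the difference was 0.26 (SE 0.11, limma adjusted p = 0.429). Mrpl35, which has a bacterial counterpart, ranged from 6.91 to 7.22 in elektra and from 7.00 to 7.45 in wildtype, a difference of -0.12 (SE 0.12). Apart from Mrpl23, Mrpl40 and Mrpl35, the members with the lower mean in elektra lay between -0.08 and 0.

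Members were also split by origin. The 42 tested members with bacterial counterparts had a median of 0.10. Of these, 31 were higher and 11 lower, and 5, or 11.9%, had an unadjusted p under 0.05. The 29 tested members without a listed bacterial counterpart had a median of 0.11, where 24 were higher and 5 lower, and 3, or 10.3%, were past that threshold. All of these calls were higher in elektra, where 7.02% of all genes were called. Among the Mrps18 paralogs, which share an ancestor with bacterial S18, Mrps18b differed by 0.06, Mrps18a by -0.08 and Mrps18c by -0.02. Mrps30 differed by 0.11 and Mrps16 by -0.0037, although a fainter feature of Mrps16 gave 0.28. The sign of Mrps16, Mrps18a, Mrps18b and Mrps30 turned in at least 1 other fit.

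**Figure D2:**
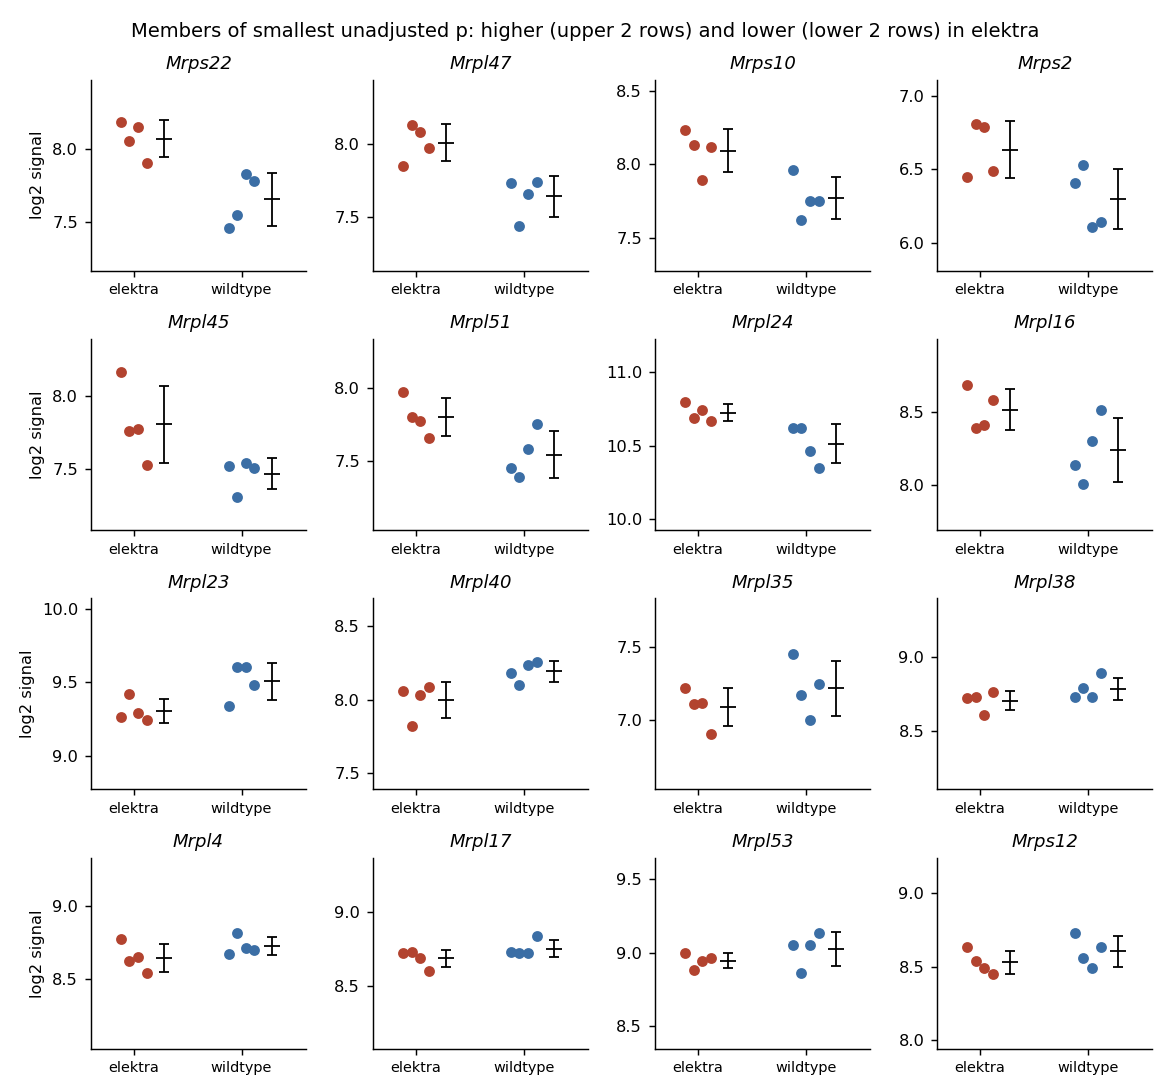
Log2 signal of the 8 members of smallest p on the higher side (upper 2 rows) and the 8 on the lower side (lower 2 rows), with elektra arrays left (red) and wildtype arrays right (blue) and the mean ± SD of 4 arrays beside each group. Every panel spans the same height on the log2 axis, and groups are apart for Mrps22, Mrpl47 and Mrpl24 above and for Mrpl40 below, with overlap in the other 12 panels.

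Mrpl27, Mrps14, Mrps18c and Mrps36 lay below the level filter and were not tested. Mrpl27, of the central protuberance, ranged from 6.09 to 6.48 in elektra and from 5.93 to 6.21 in wildtype, and averaged 6.24 in elektra and 6.03 in wildtype. Mrps14, a head protein with a bacterial counterpart, read 5.79, 6.40, 5.55 and 5.84 in elektra, against 5.68, 5.32, 5.28 and 5.72 in wildtype, with elektra replicate 2 alone above the rest. Mrps36, now known as a component of the alpha-ketoglutarate dehydrogenase complex, averaged 5.60 ± 0.22 in elektra and 5.36 ± 0.31 in wildtype (SD, n = 4 each). Over all 75 members the median difference was 0.11 as well, with 58 higher and 17 lower.

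The members' signals differed among the elektra arrays too. The median deviation of the 71 members from their own means was 0.12, 0.07, 0.02 and -0.01 on elektra replicates 1 to 4, against -0.02, -0.09, -0.03 and -0.03 on wildtype replicates 1 to 4. Elektra replicate 4 and wildtype replicate 1 were thus almost level. Elektra replicate 1 held the highest value for 29 of the 71 members, and the other arrays for 2 to 11 each. Wildtype replicates 2, 4 and 1 held the lowest value for 16, 14 and 11 members. Without elektra replicate 1 the members' median was 0.06. There 4 members, 1 of them large subunit, were higher at an unadjusted p under 0.05, or 5.63%, against 4.93% of all genes. Without elektra replicate 4 the median was 0.12 and the count 12, or 16.9%, against 6.72% of all genes.

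The widest array was elektra replicate 1 and the narrowest wildtype replicate 2, which also had the highest and the lowest median deviation. Interquartile ranges of the signals were 2.67, 2.60, 2.49 and 2.62 log2 on the elektra arrays, against 2.64, 2.41, 2.49 and 2.48 on the wildtype arrays. Elektra replicate 4, at 2.62, had the lowest median deviation in elektra (-0.01). Wildtype replicate 1, at 2.64, had the highest in wildtype (-0.02). The part of array spread in the members' difference was not tested. With this range as a covariate the members' median was 0.08, with 49 higher and 22 lower, and 5 had an unadjusted p under 0.05, or 7.04%, against 4.52% of all genes. Replicate 3 of each genotype had low Xist, the RNA that silences an X chromosome, at 5.06 in elektra and 5.37 in wildtype, and the members' median without both arrays was 0.13.

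**Figure D3:**
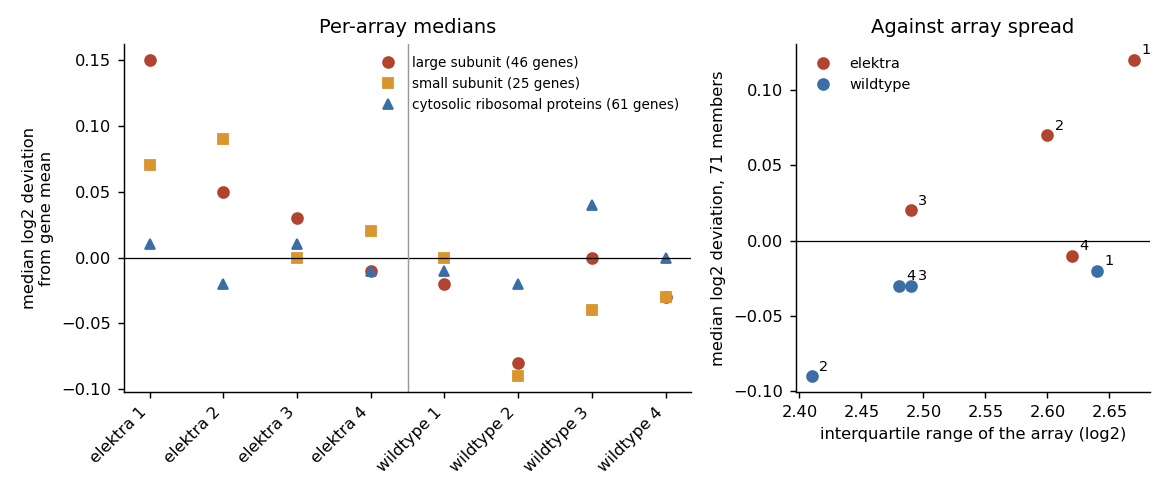
Left, median log2 deviation from the gene mean on each array for the large subunit genes, the small subunit genes and the cytosolic ribosomal protein genes, elektra arrays left of wildtype arrays; right, the median deviation of the 71 members against the interquartile range of the array in log2 units, with replicate numbers. The members' medians descend from 0.12 on elektra replicate 1 to -0.09 on wildtype replicate 2, which also have the widest and the narrowest array, at 2.67 and 2.41, while the cytosolic genes stay between -0.02 and 0.04.

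**Figure D4:**
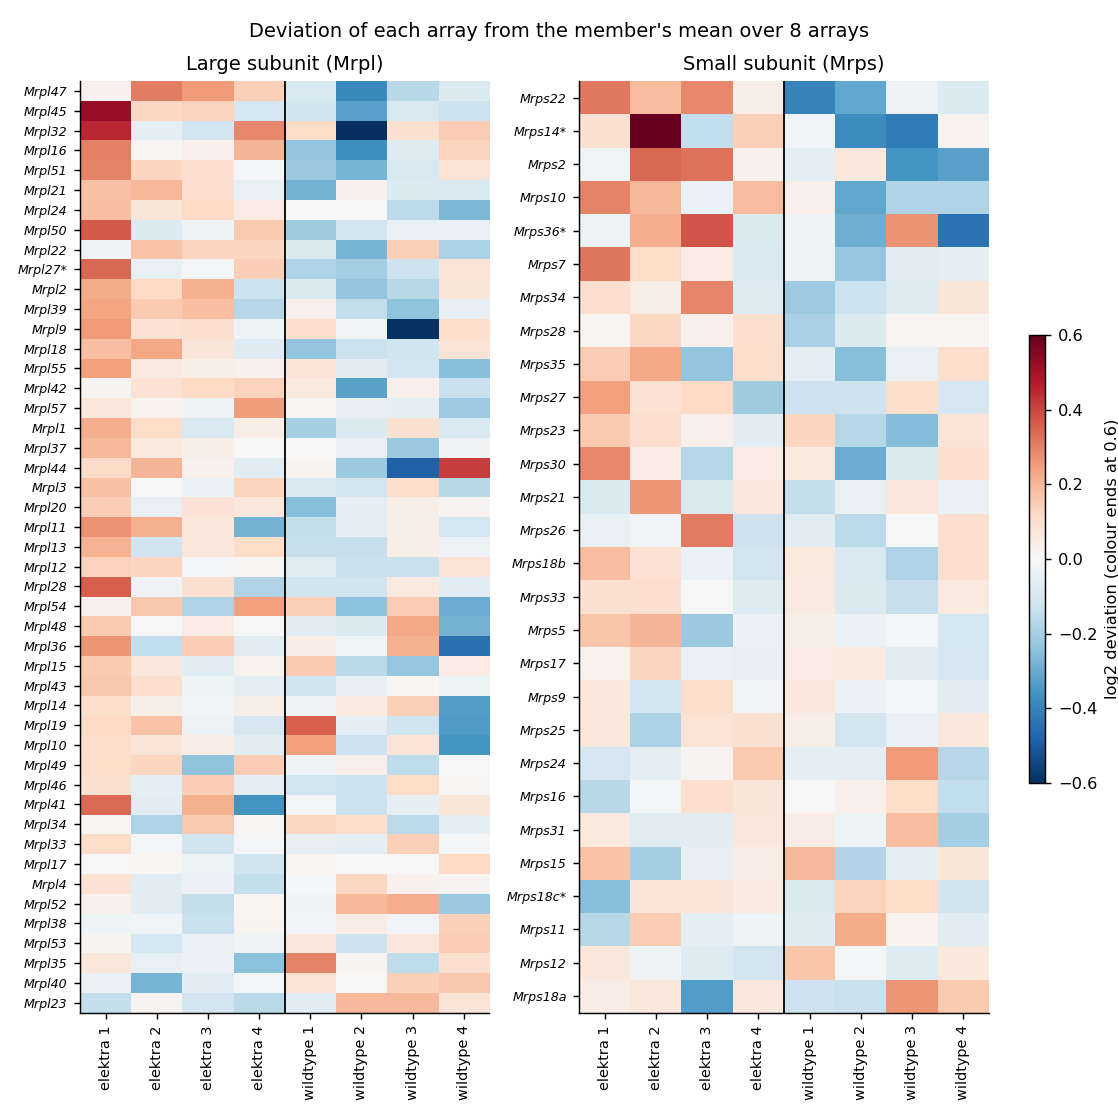
Deviation of each array from the mean over 8 arrays in log2 units (colour, ending at 0.6) for the 47 large and 28 small subunit genes, ordered by the genotype difference, with elektra arrays left of the black line, wildtype arrays right of it and asterisks for the 4 genes not tested. Red is densest on elektra replicate 1, which holds the highest value of 29 tested members, and the lowest rows, Mrpl40 and Mrpl23, are blue in elektra.

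Other genes of mitochondrial translation were read from the same fit. Of 6 subunits that carry other symbols, 5 were higher in elektra, with a median of 0.14 and 0 at an unadjusted p under 0.05. The median was 0.09 after quantile normalization and 0.08 without elektra replicate 1. Aurkaip1 differed by 0.20, Chchd1 by 0.16 and Dap3, a GTP-binding subunit of the small subunit, by 0.13. Chchd1 was the 1 gene of these 6, or 16.7%, without overlap between groups, against 3.9% of all genes on the higher side.

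Translation factors numbered 15, with 13 higher, 2 lower and a median of 0.09. Mtrf1, of the peptide release factor family, read 7.67, 7.84, 7.75 and 7.49 in elektra, against 7.19, 6.95, 7.59 and 7.29 in wildtype. Only wildtype replicate 3 reached above the lowest elektra array, and the difference was 0.43 (SE 0.14, limma adjusted p = 0.349). Mtg1, a GTPase that acts on the large subunit, differed by 0.21 and Mtif2, the initiation factor, by 0.18. Mtrf1 was the only factor of the list with an unadjusted p under 0.05, or 6.67%, against 7.02% of all genes called higher.

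Genes of assembly and ribosomal RNA modification numbered 27, with 17 higher, 10 lower and a median of 0.04 that was 0.09 with arrays centred on their medians, -0.01 after quantile normalization and 0.02 without elektra replicate 1. Of these 27, 5 had an unadjusted p under 0.05, all higher, or 18.5%, against 7.02% of all genes. With the interquartile range as a covariate 2 were higher and 2 lower, against 710 and 534 of all 15710 genes. Mtg2, a GTPase of large subunit assembly, differed by 0.34 (SE 0.11, limma adjusted p = 0.343). Mterf3, listed in the file as Mterfd1 and known as a repressor of mitochondrial transcription that also acts in assembly, differed by 0.31, and Noa1, a GTPase of small subunit assembly, by 0.28. Both of these had no overlap between groups, as had Rpusd4 and C1qbp, and these 4 of 27 make 14.8%, against 3.9% of all genes.

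Mitochondrial DNA expression was represented by 16 genes, with 12 higher, 4 lower and a median of 0.12. The median was 0.07 after quantile normalization, 0.07 without elektra replicate 1 and 0.04 with the interquartile range as a covariate. There was 1 call at an unadjusted p under 0.05 in each of the last 2 settings, against 2. Of all genes 4.93% and 4.52% were called higher in these 2 settings. Ssbp1, which binds single-stranded mitochondrial DNA, read 10.54, 10.74, 10.58 and 10.58 in elektra, against 10.05, 10.26, 10.23 and 10.51 in wildtype. The groups did not overlap, and the difference was 0.35 (SE 0.11, limma adjusted p = 0.333). Pnpt1, an RNA-degrading enzyme of mitochondria, differed by 0.37 and was the other gene of the list with an unadjusted p under 0.05. These 2 calls make 12.5%, against 7.02% of all genes called higher. Tefm, a transcription elongation factor, differed by 0.27.

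Mitochondrial transfer RNA synthetases numbered 17, with 12 higher, 5 lower and a median of 0.14 that was 0.09 without elektra replicate 1. Tars2 differed by 0.25 (SE 0.10, limma adjusted p = 0.407) and was the only one with an unadjusted p under 0.05. This 1 call is 5.88% of the list, against 7.02% of all genes called higher. After quantile normalization 0 reached that threshold. With the interquartile range as a covariate 0 higher and 2 lower did, and without elektra replicate 1 it was 2 higher and 1 lower. Over all 15710 genes, 710 higher and 534 lower did with the covariate. Without elektra replicate 1 it was 775 higher and 470 lower. Cars2 differed by 0.24 and Wars2 by 0.22.

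RNAs made in the mitochondrion, the templates and the RNA scaffold of this ribosome, were read in the same way. Of 12 mitochondrially encoded mRNAs, 3 were higher and 9 lower in elektra with a median of -0.04, but with arrays centred on their medians it was 6 and 6 with a median of 0.01. COX2 differed by -0.12, ND6 by -0.15 and ND5 by -0.09. The ribosomal RNAs mt-Rnr2 and mt-Rnr1 differed by -0.13 and -0.09. All of these had an unadjusted p above 0.05 in limma.

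Cytosolic ribosomal proteins, which build the separate ribosome of the cytosol, had a median of 0 over 61 tested genes of 71, with 28 higher and 33 lower in elektra. An unadjusted p under 0.05 was reached by 0 of the higher and 2 of the lower genes, or 3.28%, against 7.02% and 3.95% of all genes. All elektra arrays lay below all wildtype arrays for 7 of the 61, or 11.5%, and above them for 0, against 2.37% and 3.9% of all genes. Differences of these 7 ran from -0.31 for Rpl10a to -0.08 for Rpl7a. Only Rpl10a and Rpl21 had an unadjusted p under 0.05 in limma. Rpl10a averaged 8.64 ± 0.14 in elektra and 8.95 ± 0.16 in wildtype (SD, n = 4 each), a difference of -0.31 (limma adjusted p = 0.378), and Rpl21 differed by -0.19. Rpl32 followed with -0.27. With arrays centred on their medians this list had a median of 0.04, with 42 higher and 19 lower. The difference between this list and the mitoribosomal genes was not tested.

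**Figure D5:**
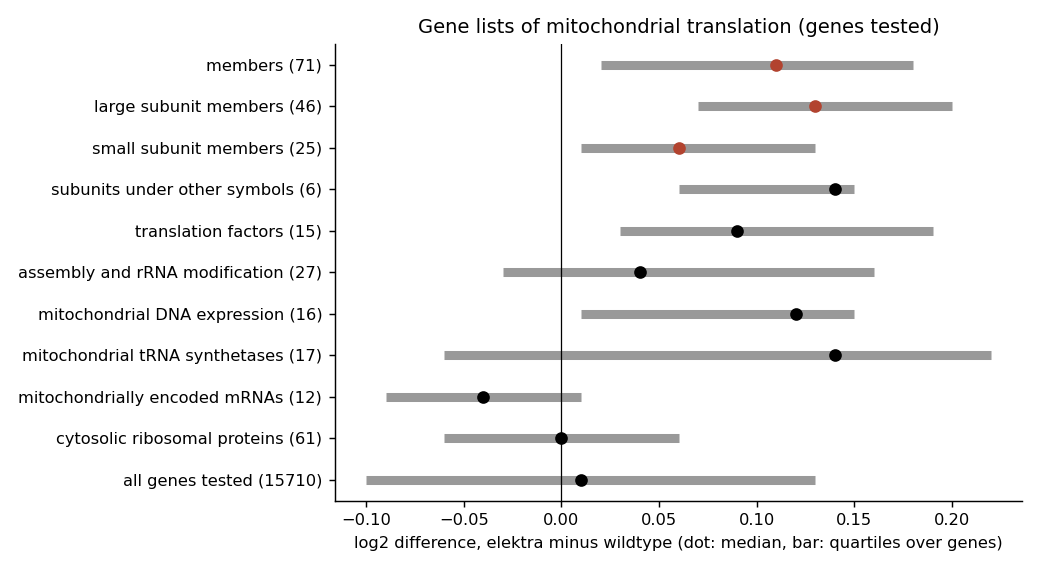
Median (dot) and quartiles (bar) over genes of the log2 difference, elektra minus wildtype, for the mitoribosomal members (red dots), other gene lists of mitochondrial translation, cytosolic ribosomal proteins and all 15710 genes tested, with the number of genes in brackets. Medians run from 0.14 for the transfer RNA synthetases to -0.04 for the mitochondrially encoded mRNAs, with 0.11 for the members and 0.01 for all genes.

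Promoter letters were searched in the 250 bases before each transcription start, from RefSeq (GRCm38.p6). Of the 75 members 66 matched, with 72 windows, and Mrpl4, Mrpl13, Mrpl15, Mrpl19, Mrpl38, Mrpl54, Mrps28, Mrps34 and Mrps35 were without an entry. The search covered both strands for the core of NRF1 (CGCATGCG), an activator of nuclear genes for mitochondria, of ETS factors such as GABP (CCGGAAG), of YY1 (AAGATGGC), for the E-box (CACGTG) and for CCAAT. None of the 79 matches overlapped a match of another motif. The ETS core was present in 23.6% of the members' windows, against 6.91% of 32851 windows of all genes, with 23.9% for the large and 23.1% for the small subunit. The NRF1 core was present in 9.72%, against 1.55%, with 13% for the large and 3.85% for the small subunit. For the YY1 core it was 5.56%, against 1.56%, with 4.35% for the large and 7.69% for the small subunit. The E-box was present in 9.72%, against 6.02%, with 13% for the large and 3.85% for the small subunit. The 7 members' windows with an E-box include nearly coinciding windows of Mrpl2, so this gene was counted more than once. CCAAT was present in 38.9%, against 33.8%, with 34.8% for the large and 46.2% for the small subunit. All shares count windows rather than genes, so a gene with several windows, which may overlap, enters more than once. They rest on 46 windows of the large and 26 of the small subunit, and the subunits' difference was not tested. Members' windows were richer in G and C, with a median of 58.4%, against 52.4%, and the part of base composition in these shares was not tested. The windows of all genes cover 27025 genes without a level filter. Genes of like signal were not set apart as a background.

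Of the 16 members with the smallest p in each direction, 14 had a window, of which 4 held the ETS core and 1 (Mrpl17) also the NRF1 core. These 4 are shown because they hold the ETS core. Mrps22 and Mrpl51 had the higher mean in elektra (0.41 and 0.26). Mrpl17 and Mrpl53 had the lower mean (-0.07 and -0.08), by less than their standard errors of 0.08 and 0.09. Capitals mark motif matches on either strand, and each sequence reads 5′ to 3′ towards the gene. The windows are chr9:98601680-98601929 on the minus strand for Mrps22, chr6:125191950-125192199 on the plus strand for Mrpl51, chr7:105811088-105811337 on the minus strand for Mrpl17 and chr6:83108858-83109107 on the plus strand for Mrpl53.
Mrps22: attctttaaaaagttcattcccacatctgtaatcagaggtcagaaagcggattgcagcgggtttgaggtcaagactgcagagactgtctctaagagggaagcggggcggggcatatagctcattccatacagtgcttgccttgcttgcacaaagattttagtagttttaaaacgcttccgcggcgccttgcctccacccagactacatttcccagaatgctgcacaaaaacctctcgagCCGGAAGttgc
Mrpl51: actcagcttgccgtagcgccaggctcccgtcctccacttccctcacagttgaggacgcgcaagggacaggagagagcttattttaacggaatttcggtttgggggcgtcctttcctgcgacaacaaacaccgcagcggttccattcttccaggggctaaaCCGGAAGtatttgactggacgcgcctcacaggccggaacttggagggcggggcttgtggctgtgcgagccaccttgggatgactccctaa
Mrpl17: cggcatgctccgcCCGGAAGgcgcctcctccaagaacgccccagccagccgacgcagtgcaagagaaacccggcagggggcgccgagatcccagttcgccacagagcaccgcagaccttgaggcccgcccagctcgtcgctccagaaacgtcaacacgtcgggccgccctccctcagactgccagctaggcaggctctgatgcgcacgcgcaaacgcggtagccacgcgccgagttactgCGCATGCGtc
Mrpl53: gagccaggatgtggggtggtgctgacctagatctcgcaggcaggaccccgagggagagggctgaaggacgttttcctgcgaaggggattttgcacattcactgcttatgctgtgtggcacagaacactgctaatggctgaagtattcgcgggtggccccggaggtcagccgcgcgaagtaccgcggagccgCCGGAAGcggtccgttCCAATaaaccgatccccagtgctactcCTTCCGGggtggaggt
The single ETS core of Mrps22 lies just before the start, that of Mrpl51 further upstream, and Mrpl53 holds 2, in opposite orientation, with a CCAAT box between them. Mrpl17 holds its ETS core far from the start and its NRF1 core just before it. A match is a run of letters, and binding was not measured here.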

How the data were processed

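RNA of 8 sorted samples was measured on 1 array each. The authors' log2 signals come from RMA (background correction, quantile normalization, probe summary) in Affymetrix Expression Console 1.4, per the submitters' processing notes. For array design, annotation and feature filter, nothing is given in the sources used here. The deposited workbook also holds the authors' log2 ratio, signed fold change and unadjusted p-value of a t-test. A deposited series table with log2 signals differed from it by at most 0.158.

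Of 33793 features, 32074 carry 1 gene symbol, and a feature with several symbols is no member. Genes with a mean of at least 6.17, the median over features, were tested with limma 3.58.1 (lmFit, eBayes; R 4.3.3), elektra minus wildtype, two-sided, without covariates, adjusted by Benjamini-Hochberg over all 15710 genes, with a threshold of 0.05. The procedure was tested on simulated data. Figures and promoter counts were made with Python 3.11.15. The number of arrays limits the precision.

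The members and lists were chosen with earlier results of these data known, and lists are described by counts and medians without a test. Named were, for either direction, the 8 members of smallest p, 3 of highest and 3 of lowest signal, members with a role told, up to 3 genes of smallest p in each other list, and Slfn2. Signals of different probe sets are not compared as levels. Alternatives were other level filters, a further quantile normalization of the RMA signals, centring on array medians, and trend and robust moderation. Others were the mean of all features, the series table, replicate number as a block, the array's interquartile range as a covariate, and leaving out arrays.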

Additional observations from a re-analysis of the deposited data

Results flagged for a closer look

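On wildtype replicate 2, Mrpl45 read 7.31, apart from the other wildtype arrays at 7.51 to 7.54. Mrpl17 read 8.84 on wildtype replicate 4, where the other wildtype arrays lay at 8.72 and 8.73. In both cases the gap to the nearest array took most of the group's range. Of 38 groups of 4 arrays examined, 2 or 5.26% stood out in this way, and chance gives about 1 in 20. Without wildtype replicate 2 or any other single array, the difference of Mrpl45 stayed between 0.22 and 0.43 and that of Mrpl17 between -0.08 and -0.04.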

How the results depend on the processing

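In every alternative run 0 members passed an adjusted p of 0.05 in limma, and the members' median difference was between 0.06 and 0.15, the highest with arrays centred on their medians. Over all genes, 6 passed, against 3 without a level filter, 13 with a stricter filter, 3 with centring, 18 with trend and robust moderation, 0 with the replicate block, 0 with the interquartile range as a covariate, 2 without replicate 3 of both genotypes and 0 to 4 without 1 array. Members higher at an unadjusted p under 0.05 numbered 8, or 11.3%, against 7.02% of all genes. They numbered 5, or 7.04%, after quantile normalization, with the covariate and without replicate 3 of both genotypes. Over all genes these 3 settings had 5.4%, 4.52% and 6.1%. Without 1 array the members numbered 4 to 12. The lowest, 5.63% against 4.93% of all genes, was without elektra replicate 1. The highest, 16.9% against 6.72%, was without elektra replicate 4. Members lower numbered 0, against 2 after quantile normalization, 1 with trend and robust moderation and 0 to 1 without 1 array. Over all genes 621 of 15710 were lower, against 796 of 15709 after quantile normalization. It was 613 with trend and robust moderation and 467 to 780 without 1 array. The small subunit median of 0.06 was 0.01 after quantile normalization and 0.11 with centring. The cause of these shifts was not tested.

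The sign of 9 of the 36 named members tested turned somewhere, in 18 of 640 values. Mrps16 turned to 0.04 with centring, 0.14 as the mean of its features and 0.04 with the covariate, and was -0.05 to 0.05 without 1 array. With the covariate Mrpl10 was -0.04, Mrpl54 -0.04, Mrps5 -0.04, Mrps30 -0.05, Mrps18b -0.0014 and Mrps11 0.03. Without 1 array Mrpl10 was -0.03 to 0.17, Mrpl44 -0.00089 to 0.30, Mrps5 -0.0047 to 0.14, Mrps11 -0.11 to 0.02 and Mrps18a -0.14 to 0.02, and Mrps18a was 0.09 without replicate 3 of both genotypes.

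Replicate numbers carry no stated pairing, and deviations of same-numbered arrays correlated at 0.14, 0.02, 0.13 and 0, with only numbers 1 and 2 of elektra matching best with their own number. With the replicate block 6 members were higher at an unadjusted p under 0.05, or 8.45%, against 7.54% of all genes. With 4 arrays per genotype, differences near the median standard error of 0.11 were not detectable. Larger ones did not pass either, the largest being 0.41 for Mrps22 (limma adjusted p = 0.294).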

Other observations

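Some members varied more within a genotype than between genotypes. Mrpl32, a protein processed by a mitochondrial protease before assembly, read 6.23 on wildtype replicate 2, against 7.24 to 7.30 on the other wildtype arrays and 7.04 to 7.60 in elektra. Mrpl9 read 6.97 on wildtype replicate 3, against 7.55 to 7.67 on the other wildtype arrays and 7.54 to 7.82 in elektra. Both were named after their values were seen. Mrpl32 differed by 0.28 and Mrpl9 by 0.20, with standard errors of 0.23 and 0.15.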
